A study of Mus musculus with 12 samples.

Results

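RNA of embryonic testes was used to ask which genes differed between *thia* and control pools in the same way in F1 and F3. Thiacloprid (*thia*) is an insecticide of the neonicotinoid class. All 12 libraries of the series were taken into one additive model of raw read counts, with the generation as a block and *thia* against control as the effect, so that 6 control libraries were compared with 6 *thia* libraries (each generation gave 3 and 3). The members described here are therefore 12 of 12 libraries, and, among genes, those whose *thia* pools all lay on the same side of all control pools in F1 and again in F3. The mice were outbred Swiss (RjOrl), every library came from a pool of testes from 3 embryos, and all embryos were taken at E15.5. Pregnant F0 females were gavaged with 6 mg/kg/day *thia* or with olive oil, its vehicle, alone (0 mg/kg/day), the first dose at E6.5 and the last at E15.5. The F1 *thia* pools are embryos exposed in the womb. The F3 *thia* pools are unexposed great-grand-offspring, reached through the male line by mating males to unrelated untreated females, and the F3 control pools descend in the same way from vehicle-treated females. No mutation or transgene was involved. Because testes of 3 embryos were pooled, the spread between libraries is the spread between pools, and it was not stated here whether the embryos of a pool came from one litter.

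Around E15.5 the male germ cells stop dividing, enclosed with Sertoli cells in the testis cords, while fetal Leydig cells between the cords make androgens and endothelial and mesenchymal cells form the interstitium. During this window male germ cells rebuild their DNA methylation and express piRNA pathway genes, which keep retrotransposons silent. Neonicotinoids act as agonists of nicotinic acetylcholine receptors. In whole testis RNA, fewer cells of a type and less RNA per cell cannot be told apart.

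Total counts per library were between 25081647 in the third F1 control pool and 68996146 in the third F3 *thia* pool. The defining markers of the germ line (*Ddx4*, 143 CPM on average), Sertoli cells (*Amh*, 519 CPM) and Leydig cells (*Cyp17a1*, 1703 CPM) were detected in all libraries. CPM are counts scaled to a common library size, here after TMM scaling, which corrects library sizes for composition. The summed CPM of 33 skeletal muscle genes was 1162 in the second F1 *thia* pool and 193 to 303 in the other F1 pools. In F3 the second *thia* pool had the lowest summed CPM of 39 germ cell genes (1188) and the highest of 24 erythroid genes (86296). List medians that these pools move most are also given without them.

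No gene passed an FDR of 0.1 for the *thia* effect common to both generations (0% of 19626 genes tested, edgeR quasi-likelihood test with Benjamini-Hochberg adjustment). The smallest adjusted p was 0.130. At an unadjusted p of 0.05, 1699 genes were higher in *thia* pools (8.66%) and 1661 were lower (8.46%). At an FDR of 0.15, 222 genes were higher (1.13%) and 177 were lower (0.902%). The count depended on the tool: DESeq2 called 1143 genes at an FDR of 0.1 on the same 12 libraries, 575 higher and 568 lower, and limma with library quality weights called 4. Without the first F1 *thia* pool edgeR called 267 genes. The fold changes below are therefore given as values with their standard errors, on the log2 scale, and positive values are higher in *thia* pools.

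In F1 the *thia* pools lay above all control pools for 1304 genes (6.64%) and below them for 1627 (8.29%). In F3 the counts were 2556 (13%) and 2655 (13.5%). The pools were apart in the same direction in both generations for 481 genes, of which 198 were higher (1.01%) and 283 were lower (1.44%). They were apart in opposite directions for 210 genes (1.07%). Of the genes above their controls in F1, 15.2% were also above them in F3 (7.75% of the F3 set), and of those below in F1, 17.4% were also below in F3 (10.7% of the F3 set). F1 and F3 share no library. Across all genes tested the sign of the effect was the same in 54.5%, and the F1 and F3 log2 fold changes had a Spearman correlation of 0.0983 and a Pearson correlation of 0.0506 over 19626 genes, which are not independent of each other. The split by direction depended on the scaling, with 258 genes higher and 241 lower under upper quartile scaling and 249 higher and 250 lower with no filter on low counts.

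**Figure D1:**
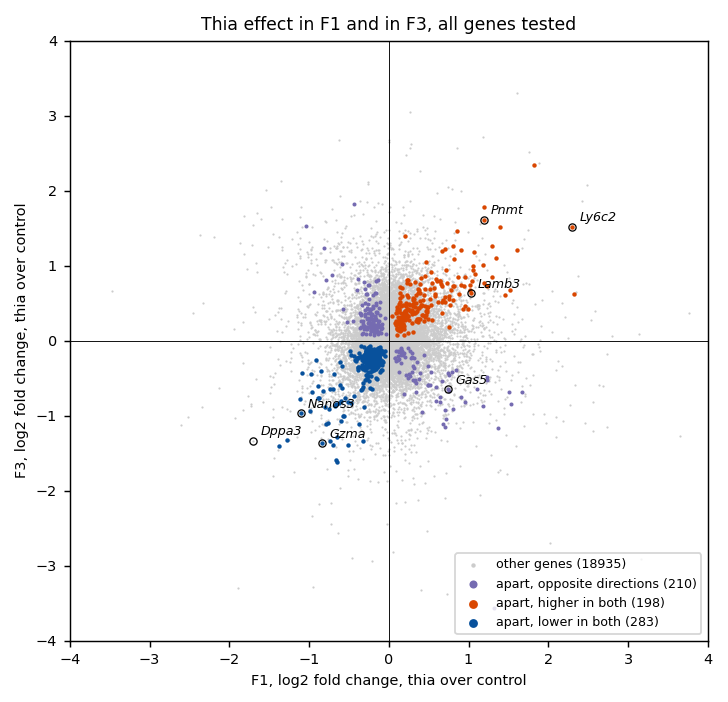
Each point is 1 of the genes tested, with its log2 fold change of *thia* over control in F1 on the x axis and in F3 on the y axis. The 198 genes higher and the 283 genes lower in both generations lie in the upper right and lower left, the 210 genes apart in opposite directions in the other quadrants, and 8 genes lie outside the axes.

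The effect followed the GC content of the transcript. The median log2 fold change of the common effect went from -0.11 in the lowest of 5 equal groups of genes by GC content to 0.11 in the highest, with -0.15 and 0.09 in F1 and -0.07 and 0.12 in F3. Genes higher in both generations had a median GC content of 55.1% and genes lower in both one of 45.1%, against 50.8% for all genes with a transcript model. In the lowest group 3.84% of genes were lower in both generations and 0.0824% were higher. In the highest group these shares were 0.137% and 2.28%. The deviation of single libraries from the gene means also followed GC content, most in the third F1 control pool, where the Spearman correlation was -0.53, and in the second F1 *thia* pool, where it was 0.36. All F3 control pools had a negative correlation (-0.15, -0.15 and -0.10), and the F3 *thia* pools were at -0.0029, 0.13 and 0.22. When the GC trend of each library was removed, 110 genes were higher and 319 lower in both generations, and 248 of the 481 genes were among them. The pools were apart in opposite directions for 272 genes, against 210 before, and for 200 when the length trend was removed too. The share of F1-higher genes that were also higher in F3 was then 11%, against 10.8% of all genes higher in F3, and the share of F1-lower genes also lower in F3 was 15.7%, against 14.6% of all genes. The Spearman correlation of the F1 and F3 effects was then 0.024, and the sign was the same in 51.1% of genes. The part of GC content in the results below was not tested, and values after removal of the GC trend are given beside the main gene groups.

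**Figure D2:**
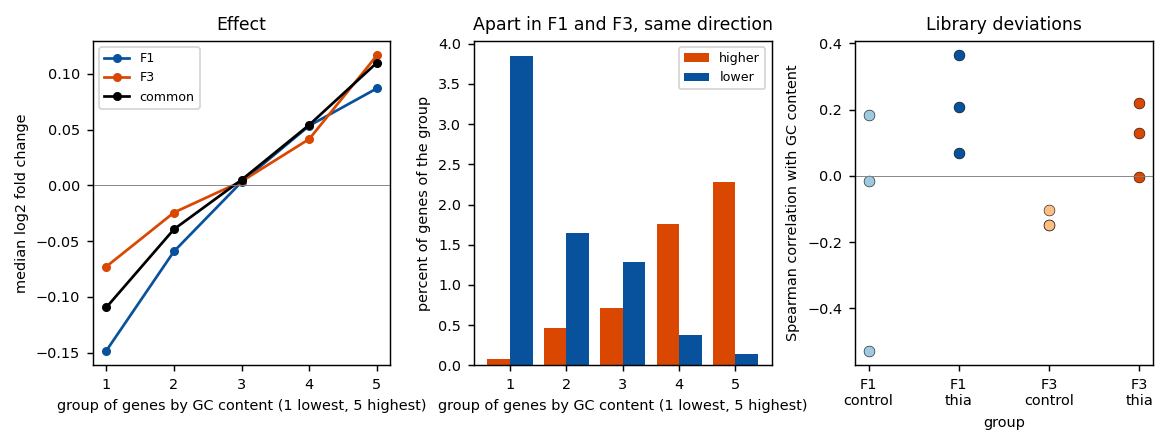
The left panel shows the median log2 fold change of 5 equal groups of genes by GC content, for F1, F3 and the common effect, the middle panel the percentage of each group whose pools were apart in the same direction in F1 and F3, and the right panel the Spearman correlation of each library's deviation from the gene mean with GC content, by group. The common effect goes from -0.11 to 0.11 over the groups, and the third F1 control pool stands lowest at -0.53.

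Among the 481 genes, 165 of those higher and 257 of those lower had a mean of at least 1 CPM, and the 12 with the smallest p in each direction are described next. Each of these 24 genes had an adjusted p of 0.130. Their pools are apart by the way they were chosen, so the exact permutation test of treatment within generations gives each its smallest possible two-sided value, 0.005, and adds nothing. All 24 kept their direction under every alternative setting tried. This too was largely fixed by the choice, since pools that are all apart stay apart when a library is left out.

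The leading gene was *Lamb3* (chr1:193294353-193343878), which encodes the beta 3 chain of a laminin of epithelial basement membranes. *Lamb3* was at 1.97, 2.05 and 1.74 CPM in the F1 control pools and at 4.08, 3.94 and 3.76 CPM in the F1 *thia* pools, and at 3.72, 3.53 and 3.11 CPM in the F3 control pools and 4.95, 6.33 and 4.78 CPM in the F3 *thia* pools. No *thia* pool overlapped the controls of its generation, and the log2 fold change was 0.82 ± 0.12 (SE). *Slc52a3* (chr2:151996511-152009258) encodes a riboflavin transporter. *Slc52a3* was at 7.74, 6.55 and 6.78 CPM in the F1 control pools and at 12.2, 13.7 and 17.8 CPM in the F1 *thia* pools, and at 7.94, 6.5 and 4.7 CPM in the F3 control pools and 11.5, 8.75 and 16.3 CPM in the F3 *thia* pools. The difference was of like size in both generations, 1.05 in F1 and 0.94 in F3, with a common value of 1.00 ± 0.16. *Fstl3* (chr10:79777274-79782630) encodes a secreted glycoprotein that binds activins and myostatin. *Fstl3* was at 7.1, 9.26 and 8.94 CPM in the F1 control pools and at 13.7, 10.7 and 12.9 CPM in the F1 *thia* pools, and at 7.51, 8.82 and 8.02 CPM in the F3 control pools and 12, 12.1 and 15.3 CPM in the F3 *thia* pools. The lowest *thia* pool of each generation was above its highest control pool, and the common log2 fold change was 0.63 ± 0.10.

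The bases upstream of the start sites of *Lamb3* and *Fstl3*, and of *Bcas2* and *Tex21* from the lower set below, are shown because these genes stand near the top of the lists. *Tasp1*, which ranked between *Bcas2* and *Tex21*, is not shown. They are the 250 bases before each annotated start (RefSeq, GRCm38.p6, 5′ to 3′ on the strand of the gene), with capitals for matches on either strand of the letters TATAAA (called the TATA motif here), of CCAAT (the motif of the factor NF-Y), of GGGCGG (the GC box, a motif of Sp1), of CACGTG (the E-box) or of GCGGGAA (called an E2F-like motif). A GC box can overlap an E2F-like motif. The table of promoters gives a pair of starts for *Lamb3*, both inside the annotated gene and not its only starts, at chr1:193301744-193301993 and chr1:193301993-193302242 on the plus strand for the windows shown, and neither window holds a match.
Lamb3, first start: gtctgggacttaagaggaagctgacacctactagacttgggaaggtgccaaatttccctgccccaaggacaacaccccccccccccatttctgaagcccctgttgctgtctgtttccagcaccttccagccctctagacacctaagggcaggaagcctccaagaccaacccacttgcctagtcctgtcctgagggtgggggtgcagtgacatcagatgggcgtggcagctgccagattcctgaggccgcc
Lamb3, second start: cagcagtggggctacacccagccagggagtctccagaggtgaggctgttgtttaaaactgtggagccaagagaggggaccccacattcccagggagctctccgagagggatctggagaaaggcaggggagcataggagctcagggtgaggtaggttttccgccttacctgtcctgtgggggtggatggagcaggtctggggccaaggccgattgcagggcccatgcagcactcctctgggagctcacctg
*Fstl3* (chr10:79777024-79777273, plus strand) has GC boxes and a TATA motif on the reverse strand, and 22 CpG dinucleotides.
Fstl3: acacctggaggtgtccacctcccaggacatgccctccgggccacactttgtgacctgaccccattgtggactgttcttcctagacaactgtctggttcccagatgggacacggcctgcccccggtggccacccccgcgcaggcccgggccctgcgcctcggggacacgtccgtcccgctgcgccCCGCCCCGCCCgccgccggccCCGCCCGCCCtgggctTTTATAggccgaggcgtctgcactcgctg
*Bcas2* (chr3:103171405-103171654, plus strand) holds an E-box and 9 CpG dinucleotides.
Bcas2: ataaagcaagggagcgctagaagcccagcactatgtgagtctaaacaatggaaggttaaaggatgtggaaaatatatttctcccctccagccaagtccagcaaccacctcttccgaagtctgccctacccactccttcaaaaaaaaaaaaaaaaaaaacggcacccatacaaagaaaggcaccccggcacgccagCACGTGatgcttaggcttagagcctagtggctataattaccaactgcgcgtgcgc
*Tex21* (chr12:76246747-76246996, minus strand) holds no match and 6 CpG dinucleotides.
Tex21: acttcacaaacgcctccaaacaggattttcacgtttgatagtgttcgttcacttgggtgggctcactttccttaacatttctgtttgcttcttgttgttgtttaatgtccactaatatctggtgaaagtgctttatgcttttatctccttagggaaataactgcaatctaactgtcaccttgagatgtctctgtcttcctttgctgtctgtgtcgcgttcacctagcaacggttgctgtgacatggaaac
Over all genes tested that have a promoter entry (14281), an E-box stood in the window of 8.98%, a GC box in 55.5%, an NF-Y motif in 39.6%, a TATA motif in 9.4% and an E2F-like motif in 6.9%. Of the genes lower in both generations with an entry (219 of 283), 14.2% held an E-box, 68% a GC box, 35.6% an NF-Y motif, 9.13% a TATA motif and 9.59% an E2F-like motif. Of those higher in both (144 of 198), 8.33% held an E-box, 52.8% a GC box, 30.6% an NF-Y motif, 12.5% a TATA motif and 7.64% an E2F-like motif. The median number of CpG dinucleotides per window was 17 for the lower genes, 9.5 for the higher genes and 12 for all genes, while the median GC content of the windows was 60%, 58.8% and 58%. The lower genes thus had GC-poor transcripts and windows no poorer in GC than those of all genes.

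*Ntrk2*, the receptor of brain-derived neurotrophic factor, was at 7.6, 6.91 and 6.75 CPM in F1 control pools against 10.5, 12.6 and 10.9 CPM in F1 *thia* pools, and at 8.56, 8.95 and 14 CPM against 15.1, 15.9 and 21.1 CPM in F3. The third F3 control pool came within about 1 CPM of the lowest F3 *thia* pool, and the common value was 0.70 ± 0.13. *Lgi2*, which encodes a secreted leucine-rich repeat protein, had a smaller and tighter difference of 0.37 ± 0.07, with 29.9, 31.1 and 31.6 CPM against 37, 35.8 and 45.4 CPM in F1 and 36.5, 40.3 and 43.8 CPM against 52.6, 54.8 and 50.8 CPM in F3. *Abca3*, a lipid transporter, differed by 0.40 ± 0.08. *Cldn18*, a tight junction claudin, differed by 1.02 ± 0.19 at a mean of 1.62 CPM. *Pcsk1n*, an inhibitor of prohormone convertase 1, differed by 0.73 ± 0.14 at a mean of 2.3 CPM. *Gm14410* belongs to a cluster of similar zinc finger genes on chromosome 2, so its reads could be shared with close copies, and it differed by 0.67 ± 0.13.

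The fast skeletal myosin heavy chain genes *Myh4* and *Myh1* were also in the higher set. *Myh4* was at 1.06, 1.36 and 1.63 CPM in the F1 control pools and at 2.66, 2.5 and 3 CPM in the F1 *thia* pools, and at 1.12, 1.46 and 1.25 CPM in the F3 control pools and 2.66, 1.67 and 1.81 CPM in the F3 *thia* pools. The values for *Myh1* were 2.9, 3.38 and 2.67 CPM against 4.48, 5.21 and 4.32 CPM in F1 and 2.82, 3.61 and 2.84 CPM against 7.09, 4.78 and 4.28 CPM in F3. All *thia* pools were above all controls for both genes. Among the F1 *thia* pools, the second, in which the summed skeletal muscle CPM stood highest, had the lowest value for *Myh4* and the highest for *Myh1*. Without that pool the median of the 33 skeletal muscle genes went from 0.45 to 0.02, and without both second *thia* pools it was -0.09. The part of muscle tissue in the higher myosin values was not tested.

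**Figure D3:**
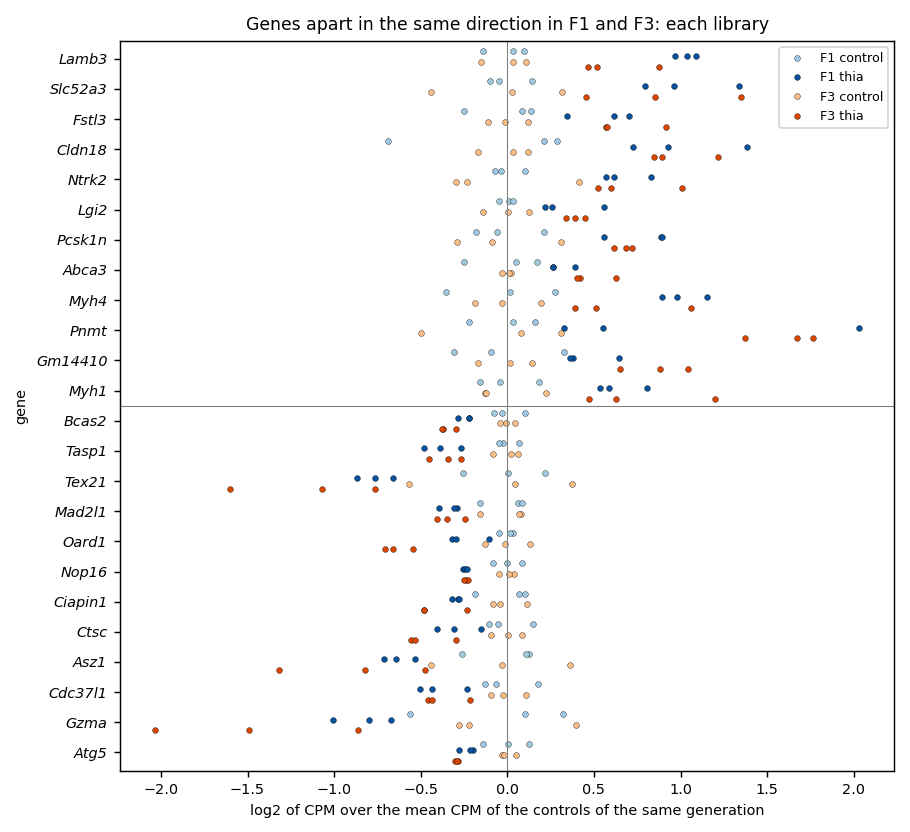
Each row is 1 of the 12 leading higher and 12 leading lower genes, and each point 1 library, as the log2 of its CPM over the mean CPM of the controls of its generation. For every gene the 3 *thia* pools lie beyond the 3 control pools of their generation, and the widest spread among *thia* pools is seen for *Pnmt*, *Tex21* and *Gzma*.

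The lower set was led by *Bcas2*. *Bcas2* (chr3:103171655-103179163) encodes a subunit of the Prp19 complex of the spliceosome. *Bcas2* was at 121, 136 and 124 CPM in the F1 control pools and at 109, 109 and 104 CPM in the F1 *thia* pools, and at 118, 113 and 111 CPM in the F3 control pools and 92.9, 88.2 and 87.7 CPM in the F3 *thia* pools. The highest *thia* pool was below the lowest control pool in each generation, and the log2 fold change of -0.30 ± 0.05 had one of the smallest errors of the set. *Tasp1*, the protease taspase 1, which cleaves the histone methyltransferase KMT2A, was at 15.6, 15.4 and 16.6 CPM against 12.1, 11.4 and 13.2 CPM in F1 and 16.8, 15.2 and 16.3 CPM against 11.7, 13.4 and 12.7 CPM in F3 (-0.36 ± 0.07). *Mad2l1*, a protein of the spindle assembly checkpoint, differed by -0.33 ± 0.06, with -0.33 in F1 and -0.33 in F3. *Nop16*, a nucleolar protein of ribosome biogenesis, was tight in both generations. *Nop16* was at 63.5, 67.4 and 60 CPM in the F1 control pools and at 53.2, 53.8 and 54.1 CPM in the F1 *thia* pools, and at 64.5, 60.7 and 63 CPM in the F3 control pools and 53.2, 53.6 and 52.8 CPM in the F3 *thia* pools. Its F1 *thia* pools spanned less than 1 CPM, as did its F3 *thia* pools, and the common value was -0.24 ± 0.05.

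The other leading genes of the lower set have various roles. *Ciapin1*, which acts in the assembly of cytosolic iron-sulfur proteins, differed by -0.34 ± 0.07. *Ctsc*, the lysosomal protease cathepsin C, differed by -0.37 ± 0.07. *Atg5*, needed to build autophagosomes, differed by -0.26 ± 0.05, and *Cdc37l1*, a partner of the chaperone Hsp90, by -0.37 ± 0.08. *Oard1*, which removes ADP-ribose from proteins, differed by -0.43 ± 0.09, with -0.24 in F1 and -0.63 in F3 and, among the 24 genes, the smallest p in the test of the interaction (edgeR, adjusted p = 0.255). *Gzma*, the protease granzyme A of cytotoxic lymphocytes, was at 3.35, 3.91 and 2.11 CPM against 1.8, 1.96 and 1.55 CPM in F1 and 3.1, 1.94 and 2.02 CPM against 1.3, 0.576 and 0.839 CPM in F3 (-1.09 ± 0.23).

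*Tex21* (chr12:76198686-76246758), a gene named for its expression in testis, had the most negative value among the 12 leading lower genes after *Gzma*. *Tex21* was at 8.73, 10.1 and 7.3 CPM in the F1 control pools and at 5.52, 5.13 and 4.78 CPM in the F1 *thia* pools, and at 8.81, 7.01 and 4.6 CPM in the F3 control pools and 4, 2.24 and 3.24 CPM in the F3 *thia* pools. The third F3 control pool lay close to the first F3 *thia* pool, and the common log2 fold change was -0.93 ± 0.18. By size of the difference, the 5 largest values among the genes higher in both generations, with a mean of at least 1 CPM, were those of *Ly6c2*, *Pnmt*, *Cldn18*, *Slc52a3* and *Dusp13*. *Ly6c2*, a surface protein of monocytes and other leukocytes with close paralogs, was at 0.0621, 0.131 and 0.185 CPM against 0.3, 0.298 and 1.14 CPM in F1 and 1.12, 1.24 and 1.54 CPM against 2, 6.65 and 2.64 CPM in F3 (1.79 ± 0.42). *Pnmt*, the enzyme that makes adrenaline in chromaffin cells, was at 0.869, 1.13 and 1.04 CPM against 1.27, 1.49 and 4.14 CPM in F1 and 1.49, 1.27 and 0.85 CPM against 4.09, 3.83 and 3.12 CPM in F3 (1.40 ± 0.28). *Dusp13*, a dual-specificity phosphatase, differed by 0.99 ± 0.22. Of 20 adrenal cortex and chromaffin genes tested, 9 were higher and 11 lower, with a median of -0.04. Without the second F3 *thia* pool, 13 of 21 were higher and the median was 0.08, and without both second *thia* pools it was 0.06. The 5 largest negative values were those of *Gzma*, the long non-coding RNA *Gm15389* (-1.05 ± 0.25), *Nanos3*, *LOC105242472* (-0.94 ± 0.28), which had no match in the annotation used, and *Tex21*.

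Most genes of the germ line had a negative common value. Of 39 germ cell identity genes, all tested, 32 had a negative and 7 a positive common effect, and the median was -0.35 (all genes tested: 9823 negative, 9803 positive, median -0.00022). At an unadjusted p of 0.05, 8.46% of all genes were lower and 8.66% higher, the shares to set beside the list counts of the main fit below too. Without both second *thia* pools, 1227 of 20231 genes tested were lower at that p and 1478 higher. Without the second F3 *thia* pool alone, 1510 of 20163 were lower and 1666 higher. After removal of the GC trend, 1856 of 19626 were lower and 1052 higher. In the main fit 15 of the 39 germ cell genes were lower at that p and 1 was higher, *Tdrd6* (0.78), a gene of mean level 0.714 CPM. The sign was negative in both generations for 27 genes and positive in both for 4. The median was -0.19 in F1, -0.31 in F3 and -0.31 for the common effect after removal of the GC trend. Without both second *thia* pools the median was -0.23, with 29 genes lower and 11 of them at an unadjusted p of 0.05.

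The summed CPM of the list overlapped between groups in both generations, at 2932 to 4058 in F1 controls and 2898 to 3165 in F1 *thia* pools, and at 1687 to 2674 in F3 controls and 1188 to 2430.5 in F3 *thia* pools. In F1, where 8.29% of all genes were apart and lower, 10 of the 39 genes were. In F3, where 13.5% of all genes were, 4 of the 39 were. Only *Asz1* and *Nanos3* of the 39 genes had pools apart in the same direction in both generations, both lower, as were 1.44% of all genes. *Asz1* (chr6:18050964-18109061) encodes a mitochondrial surface protein of germ cells needed to make piRNAs. *Asz1* was at 53.1, 69.5 and 68.6 CPM in the F1 control pools and at 44, 40.9 and 38.8 CPM in the F1 *thia* pools, and at 62.4, 47.4 and 35.7 CPM in the F3 control pools and 35, 19.5 and 27.4 CPM in the F3 *thia* pools. The third F3 control pool was less than 1 CPM above the first F3 *thia* pool, and the log2 fold change was -0.73 ± 0.15. *Nanos3* (chr8:84173733-84176552), an RNA-binding protein that keeps primordial germ cells alive, was at 5.44 ± 1.5 CPM (SD, n = 3) in F1 controls and 2.55 ± 0.598 CPM in F1 *thia* pools, and at 3.61 ± 1.42 CPM and 1.83 ± 0.778 CPM in F3 (-1.04 ± 0.24).

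*Dppa3* (chr6:122626424-122630271), which encodes the Stella protein that protects DNA methylation marks from loss in the zygote, had the largest difference of the germ cell list. *Dppa3* was at 64.6, 76.8 and 76.7 CPM in the F1 control pools and at 26.8, 25.1 and 15.3 CPM in the F1 *thia* pools, and at 39.8, 29.6 and 17.4 CPM in the F3 control pools and 17.5, 4.06 and 12.6 CPM in the F3 *thia* pools. The groups did not overlap in F1. In F3 the third control pool lay just below the first *thia* pool. The log2 fold change was -1.70 in F1 and -1.33 in F3, and -1.52 ± 0.29 in common (edgeR quasi-likelihood test, adjusted p = 0.13, and an exact permutation p of 0.01, two-sided). *Dppa5a*, a gene of pluripotent cells and germ cells, had the same pattern, apart in F1 and overlapping in F3, with -0.83 and -0.73. The pluripotency factor *Pou5f1* (-0.68 ± 0.23), the RNA helicase *Ddx4* (-0.48 ± 0.17), the meiotic competence factor *Dazl* (-0.37 ± 0.17) and the regulator of male fate *Nanos2* (-1.35 ± 0.46) were each at a negative value with a wider error.

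**Figure D4:**
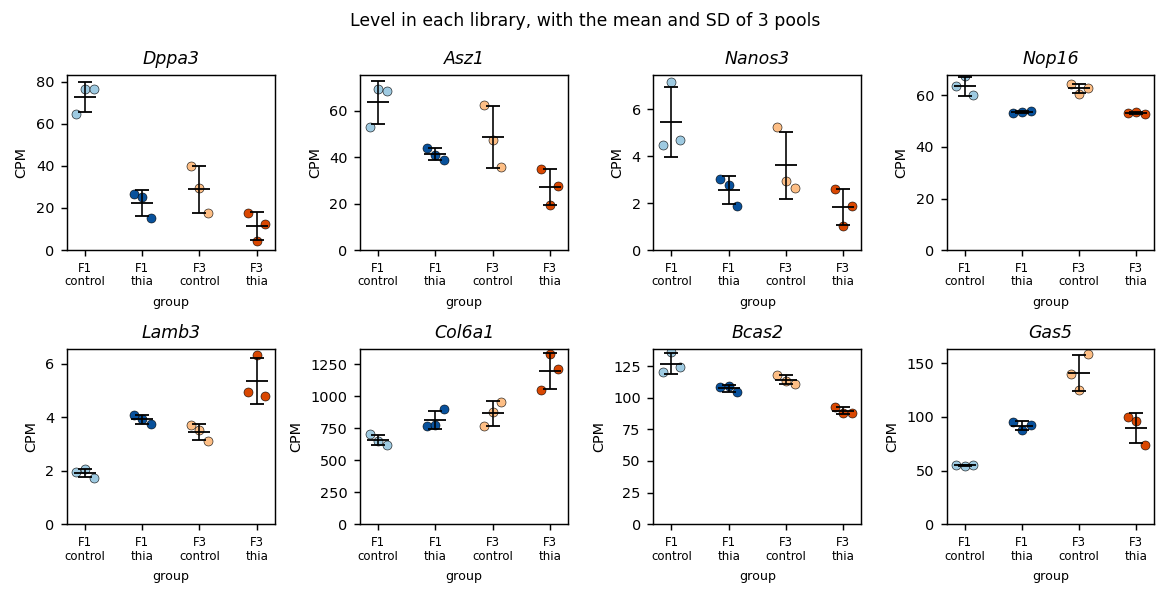
CPM of 8 genes in each of the 12 libraries by group, with bars at the mean and SD of 3 pools. *Dppa3* is at 64.6, 76.8 and 76.7 CPM in F1 controls and 26.8, 25.1 and 15.3 CPM in F1 *thia* pools, and *Gas5* is higher in *thia* pools in F1 and lower in F3.

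The same direction was seen in related lists. Of 25 meiotic prophase genes tested, 19 were lower and 6 higher, 7 of the lower ones at an unadjusted p of 0.05. The median was -0.20 (-0.20 in F1, -0.18 in F3 and -0.17 after removal of the GC trend). *Mei4*, needed for meiotic double-strand breaks, was apart in both generations at a mean of 0.896 CPM (-0.58 ± 0.20), and *Tex12*, a synaptonemal complex protein, overlapped (-0.45 ± 0.15). Of 42 germline reprogramming genes, a list used by the study, 37 were lower and 5 higher, 13 of the lower ones at an unadjusted p of 0.05. The median was -0.28 (-0.25 in F1, -0.21 in F3). After removal of the GC trend the median was -0.21, with 8 lower at an unadjusted p of 0.05. This list shares *Asz1*, *Tex12*, *Ddx4*, *Dazl* and other members with the lists above. *Rpl10l*, a retrogene copy of a ribosomal protein gene whose reads could be shared with its parent, was apart in both generations (-0.49 ± 0.13).

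Most collagen and matrix genes had a positive common value. Of 37 genes, 35 had a positive and 2 a negative value, 28 of them at an unadjusted p of 0.05 and all 28 higher, with a median of 0.30 (0.21 in F1, 0.37 in F3 and 0.26 after removal of the GC trend). The sign was positive in both generations for 32 of 37. *Col6a2* and *Col6a1*, chains of the microfibrillar collagen VI, were among the 6 that were apart and higher in both, as were 1.01% of all genes. *Col6a1* (chr10:76708792-76726044) was at 705, 650.1 and 624 CPM in F1 controls and 770.0, 774 and 899 CPM in F1 *thia* pools, and at 766, 877 and 957 CPM and 1052, 1327 and 1213 CPM in F3. All *thia* pools were above all controls, and the common log2 fold changes were 0.39 ± 0.08 for *Col6a1* and 0.39 ± 0.08 for *Col6a2*. *Col5a1*, a chain of fibrillar collagen V, overlapped in F1 and was apart in F3 (0.45 ± 0.10). *Bgn*, the proteoglycan biglycan, and *Col3a1*, a fibrillar collagen, were apart in both, at 0.30 ± 0.07 and 0.27 ± 0.07. Without both second *thia* pools, 36 of 37 collagen and matrix members lay above 0 (median 0.28), and the least value under any setting was 0.19, after removal of the GC and length trends.

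Most interferon response genes also had a positive value. Of 28 genes tested, 25 had a positive value, 13 of them at an unadjusted p of 0.05, with a median of 0.40 (0.25 in F1 and 0.46 in F3, 0.36 after removal of the GC trend). The pools were apart in the positive direction for 17 genes in F3 (13% of all genes) and for 4 in F1 (6.64% of all genes). Without the second F3 *thia* pool the median of the list was 0.27, with 26 of the 28 positive. *Zbp1*, a sensor of nucleic acids, had the largest difference but lay under 1 CPM in all libraries (1.51 ± 0.30). *Oasl2*, an oligoadenylate synthetase-like protein, overlapped in F1, where the second *thia* pool was as low as the controls (0.32), and was apart in F3 (0.82). *Rtp4* (0.77 ± 0.16) had this pattern too. *Irf7* and *Irf9*, transcription factors of the pathway, were at 0.67 ± 0.19 and 0.50 ± 0.13. Of 24 macrophage and immune markers, 23 were at a positive value (median 0.20, 0.34 in F1 and 0.10 in F3), and 1 was at an unadjusted p of 0.05. Without the second F3 *thia* pool, 17 of the 24 were at a positive value and the median was 0.09. Their summed CPM was 139.8 to 173 in F1 controls and 173 to 221 in F1 *thia* pools, and 324 to 522 in F3 controls and 324 to 582 in F3 *thia* pools. The part of immune cells in the interferon values was not tested.

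Most genes of rRNA processing had a small negative value. Of 53 genes, 46 had a negative value, 15 of them at an unadjusted p of 0.05, and no positive value was at that level, with a median of -0.13 (-0.08 in F1, -0.16 in F3). The median was the same to 2 decimals after removal of the GC trend, and ranged from -0.14 to -0.11 over the settings tried. Besides *Nop16*, the genes *Utp18* (-0.24 ± 0.06), a part of the processome of the small subunit, and *Wdr12* (-0.29 ± 0.08), which acts on the large subunit, were apart in both generations. In the whole list 6 genes were apart and lower in both, as were 1.44% of all genes. *Npm1*, the nucleolar chaperone, was apart only in F3 (common -0.21 ± 0.07). Of 38 proteasome subunits 34 were lower (median -0.13, and -0.12 after removal of the GC trend), almost all of it from F3 (-0.24 against -0.01 in F1). *Psmd14*, the deubiquitinase of the proteasome lid, was apart in both, at -0.24 ± 0.06. Its value was -0.16 after removal of the GC trend and -0.14 after removal of the GC and length trends.

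Ribosomal protein genes did not share a direction. The 78 cytoplasmic ribosomal protein genes had a median of 0.16 in F1 and -0.24 in F3, 72 of them had opposite signs in the 2 generations, and the common median was -0.04. *Rpl37a* was at 0.22 in F1 and -0.22 in F3. The 72 mitochondrial ribosomal protein genes were at 0.02 in F1 and -0.24 in F3, and the 85 respiratory chain and ATP synthase genes at 0.08 and -0.17. The 20 snoRNA host genes tested had a common median of -0.14, with 17 of 20 lower. *Taf1d*, which hosts snoRNAs in its introns, was apart in both generations (-0.21 ± 0.07). Its value was -0.11 after removal of the GC trend and -0.06 after removal of the GC and length trends.

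**Figure D5:**
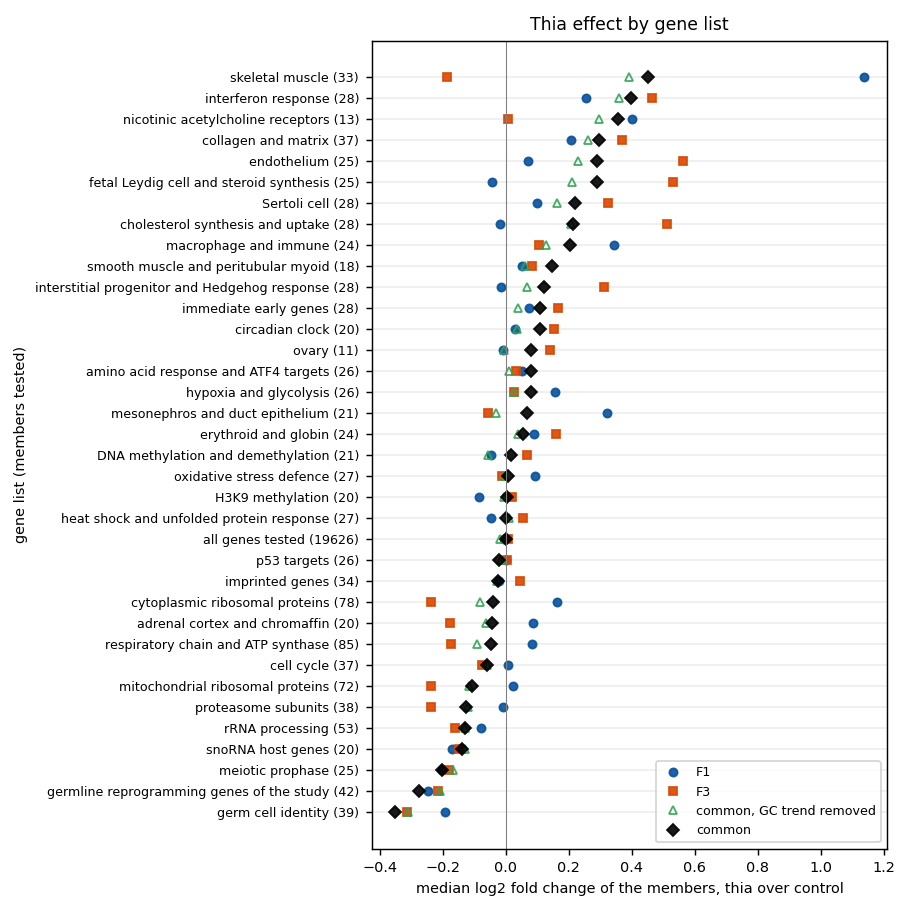
Median log2 fold change of *thia* over control for the members of each gene list, with the number of members tested in brackets, for F1, F3, the common effect and the common effect after removal of the GC trend. Germ cell identity genes are lowest for the common effect (-0.35), skeletal muscle genes are highest (0.45) and differ between F1 (1.14) and F3 (-0.19).

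Most markers of somatic testis cells had a positive common value, with medians that were larger in F3 than in F1. Of 28 Sertoli cell genes 24 were at a positive value (median 0.22, 0.10 in F1 and 0.33 in F3). After removal of the GC trend 23 were, with a median of 0.16. At the unadjusted p used for the lists above, 7 were higher and 1 lower, against 2 and 1 after that removal. *Fgf9* of this list had a negative common value (-0.25 ± 0.10). It was at -0.18 in F1, where pools overlapped, and -0.32 in F3, where they were apart and lower. *Inha*, the inhibin alpha subunit, was at 0.15 in F1, where pools overlapped, and 0.89 in F3, where they were apart, and *Amh*, the anti-Müllerian hormone, at 0.23 and 0.87 with overlap in both. Of 25 fetal Leydig cell and steroid synthesis genes, 22 were at a positive value, with a median of -0.04 in F1 and 0.53 in F3. The common median of this list was 0.29, and 0.21 after removal of the GC trend. The steroid enzyme *Cyp17a1* was at -0.04 and 1.07, the cholesterol receptor *Scarb1* at -0.12 and 1.16, and the cholesterol transport protein *Star* at -0.29 and 1.09. The additive value averages F1 and F3 values that were unlike for these genes, though in edgeR their difference between generations did not pass an FDR of 0.1. The 28 cholesterol synthesis and uptake genes had a common median of 0.21, before and after removal of the GC trend. In F3, where 13% of all genes were apart and higher, 20 of the 28 were. In F1 none were apart and higher and 4 were apart and lower (6.64% and 8.29% of all genes). Of 25 endothelial genes, 22 were at a positive value, with a median of 0.07 in F1 and 0.56 in F3. *Eng*, a co-receptor of TGF-beta on vessels, had the smallest p of that list (0.55 ± 0.10), and *Cdh5*, the cadherin of endothelial junctions, was at 0.19 and 1.14.

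*Dkk1*, a secreted inhibitor of Wnt signalling, was lower and apart in both generations. *Dkk1* was at 10.3, 9.78 and 12 CPM in the F1 control pools and at 9.21, 9.32 and 7.06 CPM in the F1 *thia* pools, and at 17.5, 17.5 and 8.45 CPM in the F3 control pools and 4.32, 8.06 and 4.81 CPM in the F3 *thia* pools. The value was -1.35 in F3 and -0.33 in F1 (interaction in edgeR, adjusted p = 0.287), and the common value was -0.83 ± 0.24 with an adjusted p of 0.157. *Notch3*, a Notch receptor of perivascular and interstitial cells, was higher and apart in both (0.39 ± 0.12), as 1 of 28 interstitial progenitor and Hedgehog response genes, of which 18 were at a positive value (median 0.12, and 0.07 either without the second F3 *thia* pool or after removal of the GC trend). The value of *Notch3* itself was 0.26 after removal of the GC trend and 0.20 after removal of the GC and length trends. *Pax2*, a transcription factor of the mesonephric duct, was higher and apart in both (0.47 ± 0.13), as 1 of 21 mesonephros and duct genes, of which 13 were at a positive value (median 0.07). After removal of the GC trend 9 of the 21 were, with a median of -0.03, and without the second F3 *thia* pool the median of this list was 0.16. *Bmp2* was the gene of an 11-gene ovary list that was apart in both (0.35 ± 0.08), and 7 of the 11 were at a positive value (median 0.08, and -0.0071 after removal of the GC trend). Of 24 erythroid and globin genes 15 were at a positive value, none had an unadjusted p of 0.05, and the median was 0.05. Without both second *thia* pools all 24 were lower, 13 of them at an unadjusted p of 0.05, with a median of -0.45. Without the second F3 *thia* pool alone 20 were lower, 5 of them at that p, with a median of -0.28. Of 18 smooth muscle and peritubular myoid genes 13 were at a positive value (median 0.15, 0.06 after removal of the GC trend and 0.04 without both second *thia* pools).

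Of 16 nicotinic acetylcholine receptor subunit genes, the family on which *thia* acts in insects, 13 could be tested and 12 were at a positive value, with a median of 0.36 (0.40 in F1 and 0.01 in F3). Most were near or under 1 CPM. *Chrnb2*, the beta 2 subunit, was apart in both, at 0.538, 0.738 and 0.89 CPM against 0.899, 1.09 and 1.1 CPM in F1 and 0.62, 1.02 and 0.717 CPM against 1.77, 1.7 and 1.03 CPM in F3 (0.72 ± 0.21), though the highest F3 control pool was within 0.1 CPM of the lowest *thia* pool. Without the second F1 *thia* pool the median of the list was 0.17, and after removal of the GC trend it was 0.30.

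The other lists had medians from -0.06 to 0.11. Medians of the common effect were 0.08 for 26 amino acid response genes, -0.02 for 26 p53 targets, 0.0080 for 27 genes of oxidative stress defence, 0.00049 for 27 heat shock and unfolded protein response genes, 0.08 for 26 hypoxia and glycolysis genes, 0.11 for 20 circadian clock genes, 0.11 for 28 immediate early genes, 0.02 for 21 genes of DNA methylation and demethylation, 0.0027 for 20 of H3K9 methylation, -0.03 for 34 imprinted genes and -0.06 for 37 cell cycle genes. Without both second *thia* pools the cell cycle median was -0.12, with 30 of 37 lower and 10 of these at an unadjusted p of 0.05, against 23 and 3 with all pools. In these 11 lists 3 of the members were apart in both generations, against 1.01% of all genes higher and 1.44% lower in both. Higher was the clock gene *Per2* (0.36 ± 0.11), while the peroxide-removing enzyme *Prdx1* was lower (-0.20 ± 0.07), as was the cyclin-dependent kinase inhibitor *Cdkn2b* (-0.49 ± 0.18). After removal of the GC trend these genes were at 0.29, -0.13 and -0.58, in the same order. The 481 genes were spread over all autosomes and the X chromosome, from 1.6% of the genes tested on chromosome 19 to 3.17% on chromosome 17.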

How the data were processed

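RNA of 12 embryonic testis pools (4 groups of 3) was analysed. Per the labels and the study's methods, the authors made directional libraries, sequenced paired-end reads, called bases with bcl2fastq 2.20.0.422, mapped reads to mm10 with HISAT2 2.1.0 and counted them per refGene gene with featureCounts. The files as deposited hold raw, unnormalized counts of 35976 gene symbols. The methods give paired-end mode and reverse strand for the mapping. Whether featureCounts counted reads or pairs, and its strand setting, are not given in the sources used here. Overlapping genes and close paralogs may share reads.

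Of the symbols, 32501 were found in RefSeq (GRCm38.p6) directly and 1005 through a synonym, and positions come from it. Transcript length and GC content came from GENCODE M21 for 92.8% of the genes tested. Promoter entries were found for 23 of 26 genes looked for; there was none for *Slc52a3* or *Dppa3*.

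Counts were analysed with edgeR 4.0.16 in R 4.3.3 (quasi-likelihood test, additive design of generation and treatment, all libraries, filterByExpr with a minimum count of 10, TMM, Benjamini-Hochberg adjustment, FDR 0.1). F1 and F3 effects and their difference came from a fit of the 4 group means. Standard errors were derived from the test statistic. Pools were called apart on log2 CPM with a prior count of 2. Alternatives used DESeq2 1.42.0, limma 3.58.1, other scalings, filters and thresholds, and libraries left out. Removal of the GC trend (loess per library, span 0.3) and leaving out the third F1 control pool with the second F1 *thia* pool were chosen after seeing the data. The additive fit was also run on simulated counts for 12 libraries, in which 200 genes were given a set difference. It recovered 0% of these genes at a log2 difference of 0.25, 41% at 0.5, 77% at 1 and 97.5% at 2. The false share of its calls was 100%, 10.9%, 6.1% and 12.2%, in the same order. The count of 0 genes in the main test therefore cannot show that differences of 0.25 were absent, and part of those of 0.5 and 1 were missed too. The simulated counts did not carry the GC trends of the libraries, so these shares may not hold for the data. Named genes were, since no gene passed the FDR, the 12 higher and 12 lower with the smallest p and the 5 largest in each direction among genes apart in both generations with a mean of at least 1 CPM, at most 3 members per list, 8 genes of interest (*Gas5*, *Dppa3*, *Rpl37a*, *Inha*, *Dkk1*, *Cyp17a1*, *Scarb1* and *Star*), and genes apart in opposite directions with the smallest interaction p. Other list members named beside them (*Ddx4*, *Pou5f1*, *Dazl*, *Nanos2*, *Tdrd6*, *Bgn*, *Col3a1*, *Irf7*, *Irf9* and *Npm1*) and *Cdkn2b* were picked with their values in view. The genes reported and all lists were chosen with earlier results of these data known. Results on some genes are not reported here. Tables were made with Python 3.11.15.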

Additional observations from a re-analysis of the deposited data

Results flagged for a closer look

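For 210 genes the pools were apart in both generations but in opposite directions, 76 higher in F1 and lower in F3 and 134 the reverse. The differences between the F1 and F3 effects were tested for all genes, and at an FDR of 0.1 only *Gas5* passed with edgeR (adjusted p = 0.0193); 2755 genes had an unadjusted p under 0.05, and DESeq2 called 638. *Gas5*, a non-coding RNA that hosts snoRNAs in its introns, was at 55, 54.5 and 54.9 CPM in F1 controls and 95.6, 87.6 and 92.3 CPM in F1 *thia* pools, and at 139, 125 and 158 CPM in F3 controls and 99.6, 96.1 and 74.1 CPM in F3 *thia* pools. Its F3 effect minus its F1 effect was -1.39 on the log2 scale. The summed CPM of 20 snoRNA host genes, of which *Gas5* is one, was 262 to 283 in F1 controls and 282 to 312 in F1 *thia* pools, and 405 to 487 in F3 controls and 348 to 365 in F3 *thia* pools.

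Of the genes with a mean of at least 1 CPM, *Mrps14*, a mitochondrial ribosomal protein, was higher in F1 (0.30) and lower in F3 (-0.53), a difference of -0.83 that did not pass the FDR (adjusted p = 0.213). The ubiquitin ligase *Herc2* was lower in F1 (-0.11) and higher in F3 (0.51), a difference of 0.62 (adjusted p = 0.164). *Ddx58*, which encodes the RNA sensor RIG-I, was lower in F1 (-0.26) and higher in F3 (0.48), a difference of 0.74 (adjusted p = 0.248).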

How the results depend on the processing

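The count of 0 genes at an FDR of 0.1 was 1143 with DESeq2 (575 higher, 568 lower, 355 apart in both generations), 399 at an FDR of 0.15 (222, 177 and 225), 539 as the mean of the F1 and F3 effects in the fit of group means (314, 225 and 213), 8 with no filter on low counts (7, 1 and 5), and 4 with limma quality weights (2, 2 and 2). Leaving out 1 library gave 0 to 267 calls (0 to 168 higher, 0 to 99 lower, 0 to 236 apart in both): 267 without F1 *thia* pool 1, 7 without F3 *thia* pool 1, 1 without F3 *thia* pool 2. The other scalings, the stricter filter and FDR, removal of GC or length trends, and leaving out both second *thia* pools or both libraries that follow GC content most gave 0. The interaction count of 1 was 638 with DESeq2, 2 after removal of the GC trend, 0 without both libraries that follow GC content most, and 0 to 4 with 1 library left out.

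The 481 genes apart in both were 423 to 621 under other scalings, filters and trend removals, 593 to 1060 with 1 library left out, 997 without both second *thia* pools and 957 without both libraries that follow GC content most, since fewer pools must be apart. With the length trend removed 137 were higher and 484 lower. With the replicate block, edgeR again called 0 genes (smallest adjusted p 0.262). Whether the replicate numbers pair samples could not be decided from these values. Correlations of same-numbered deviations were -0.04, -0.04 and 0.03 in F1 and 0.19, -0.37 and -0.24 in F3. Those of differently numbered deviations ranged from -0.08 to 0.11 in F1 and from -0.37 to 0.46 in F3. Deviations within a group are not independent of each other. The block left 2686 genes at an unadjusted p of 0.05, against 3360, but it also leaves fewer degrees of freedom.

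The median kept its sign in all 21 settings for 23 of 35 gene lists. It did not for erythroid, mesonephros, adrenal, ovary, skeletal muscle, p53, oxidative stress, heat shock, DNA methylation, H3K9 methylation, imprinted and cytoplasmic ribosomal protein genes. Of 91 named genes 89 kept their direction, and *Gas5* and *Rpl37a*, with common values near 0, did not. For named genes chosen because their pools were apart in both generations, this was largely fixed by the choice. *Gas5* (main 0.05) was -0.0834 without both libraries that follow GC content most and ranged from -0.0552 to 0.195 with 1 library left out. *Rpl37a* (main 0.0030) was -0.0041 with the replicate block, -0.0462 with limma quality weights, -0.0316 without both libraries that follow GC content most, and -0.0658 to 0.0799 with 1 library left out. The causes were not tested. Genes with differences under the size of their errors could not be told from 0 at 3 pools per group. In the main test no common difference passed an FDR of 0.1, so those larger than their errors were not established there either.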
